A study of Arabidopsis thaliana with 6 samples.

Results

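The JAZ proteins are the repressors that hold jasmonate responses in check, and 10 of their genes were followed over 3 doses of melatonin, an indoleamine made from tryptophan. They were found in the count table by their listed identifiers: JAZ1 (AT1G19180), JAZ2 (AT1G74950), JAZ3 (AT3G17860), JAZ5 (AT1G17380), JAZ6 (AT1G72450), JAZ7 (AT2G34600), JAZ8 (AT1G30135), JAZ9 (AT1G70700), JAZ10 (AT5G13220) and JAZ12 (AT5G20900), 10 of the 32678 genes of the count table. RefSeq lists JAZ2 as TIFY10B and JAZ9 as TIFY7. RNA was sequenced from plants of Arabidopsis thaliana labelled WT that were 7 days old on MS plates, a mineral culture medium, and then spent 12 h with 0 µM (the control), 100 µM or 1000 µM melatonin. All 3 groups share genotype, age and exposure time, and each has 2 libraries. Rosette leaves are the labelled tissue, while the series title is about root growth.

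Jasmonates are lipid-derived hormones that in leaves govern responses to wounding, chewing insects and necrotrophic fungi, and that restrain growth. Without the hormone, JAZ proteins sit on transcription factors such as MYC2 and recruit the adaptor NINJA and the corepressor TOPLESS (TPL). The active form, jasmonoyl-isoleucine, joins the F-box protein COI1 to a JAZ protein, which is then ubiquitinated and degraded, and many JAZ genes are themselves induced by MYC2, which closes a feedback loop. JAZ3 and JAZ9 form a group by sequence with JAZ4, JAZ1 and JAZ2 are a pair, as are JAZ5 and JAZ6, and JAZ7 and JAZ8 are short proteins that bind the corepressor directly.

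The results turn on JAZ3 and JAZ9, so the 300 bases before their annotated gene starts are shown, with those of JAZ2 as a gene that holds a G-box but did not pass the test. The sequences are from RefSeq's TAIR10.1 assembly, read 5′ to 3′ on the gene's strand, and lie at chr3:6119407-6119706 on the plus strand for JAZ3, chr1:26654229-26654528 on the plus strand for JAZ9 and chr1:28150447-28150746 on the minus strand for JAZ2. Capitals mark matches to CACNTG on either strand, the relaxed form of the G-box CACGTG, to which MYC2 and other basic helix-loop-helix factors bind.
JAZ3: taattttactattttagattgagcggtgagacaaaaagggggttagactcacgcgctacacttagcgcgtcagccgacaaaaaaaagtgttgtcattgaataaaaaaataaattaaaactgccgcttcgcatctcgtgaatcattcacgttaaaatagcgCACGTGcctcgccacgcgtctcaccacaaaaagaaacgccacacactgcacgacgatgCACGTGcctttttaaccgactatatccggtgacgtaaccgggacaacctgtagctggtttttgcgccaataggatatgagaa
JAZ9: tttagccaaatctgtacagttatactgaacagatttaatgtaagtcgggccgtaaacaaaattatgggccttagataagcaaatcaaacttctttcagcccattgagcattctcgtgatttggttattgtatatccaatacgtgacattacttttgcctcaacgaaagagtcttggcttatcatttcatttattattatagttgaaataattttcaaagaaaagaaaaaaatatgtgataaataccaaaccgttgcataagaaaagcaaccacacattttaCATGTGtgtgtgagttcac
JAZ2: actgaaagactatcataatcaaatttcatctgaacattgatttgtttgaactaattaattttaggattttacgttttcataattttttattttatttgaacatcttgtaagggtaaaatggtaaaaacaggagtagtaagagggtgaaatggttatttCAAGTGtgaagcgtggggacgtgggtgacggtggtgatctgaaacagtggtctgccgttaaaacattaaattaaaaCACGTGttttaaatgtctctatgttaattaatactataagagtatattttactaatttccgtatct
JAZ3 held 2 copies of CACGTG, 82 and 140 bases before the start. JAZ9 held no CACGTG and 1 match to the relaxed form, 19 bases before the start. JAZ2 held CACGTG at 66 bases and a further relaxed match at 142 bases.

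The same search, on both strands, over the windows of 26711 protein-coding genes set the background. CACGTG was found in 4 of the 10 JAZ windows (JAZ2, JAZ3, JAZ7 and JAZ8) and in 7.18% of all windows. CACNTG, which includes every CACGTG, was found in 6 of the 10, those 4 with JAZ9 and JAZ10, and in 30.1% of all windows. The W-box core TTGAC, bound by WRKY factors, was found in 5 of the 10 (JAZ1, JAZ6, JAZ7, JAZ8 and JAZ12) and in 50.4% of all. GCCGCC, bound by ERF factors, was in 0 of the 10 and in 2.24% of all. The JAZ3 window was 44.7% G and C, while the other 9 lay between 25.7% and 38%. These are matches of letters, and binding was not measured.

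**Figure D1:**
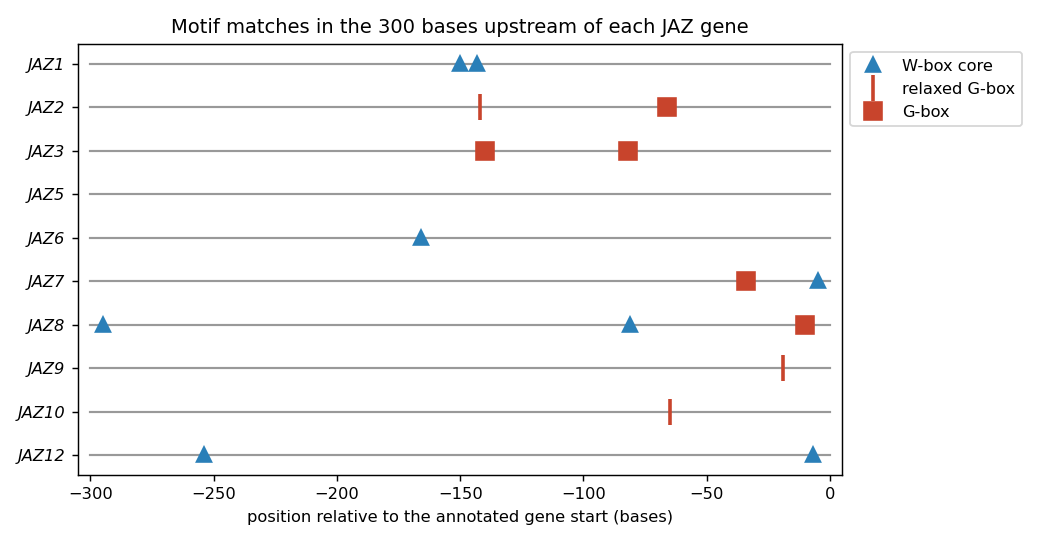
Matches to the G-box, the relaxed G-box and the W-box core in the 300 bases before each of the 10 JAZ genes, with distance to the annotated gene start in bases on the x axis and 1 line a gene. JAZ3 carries 2 G-boxes, at 82 and 140 bases, and JAZ5 carries none of the 3 motifs.

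The libraries held between 6410046 and 7723602 counts, and 18380 genes had enough counts to test. The labels do not state whether the 2 libraries of each dose come from different plants, and p-values here reflect only how far such libraries differ, a spread that may be technical. The pair at 1000 µM was the least alike, with a chi-square per degree of freedom of 5.68, against 1.96 in the controls and 1.86 at 100 µM. The leaf label was checked on 8 leaf markers, whose summed level was 26100 and 28300 CPM (counts on a scale shared by the libraries) in the controls, 25200 and 24600 with 100 µM, and 16500 and 14900 with 1000 µM. Root markers were also present: 6 of 8 had more than 3 counts in all 6 libraries, and their sum was 3270 and 3390 CPM in the controls, 3130 and 3190 with 100 µM, and 2070 and 2110 with 1000 µM. PYK10 alone held most of the root sum, at 3180 and 3310 CPM in the controls and 2010 and 2050 with 1000 µM. Both sums were lower at 1000 µM, where 7 of 8 leaf markers and 6 of 7 tested root markers fell, beside 14.5% of all tested genes. The other tested root marker, CASP1, did not pass (log2 change -0.12, edgeR adjusted p = 0.701). With root markers present, the material may not have been leaf alone. In a mixed tissue, fewer cells of a type and less RNA per cell cannot be told apart. The part of these shifts in the JAZ values was not tested.

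Across the family, per kilobase of coding sequence, JAZ9 was the most abundant transcript in all 3 groups. Its level per kilobase was 177 ± 3.77 CPM in the controls (SD, n = 2), 196 at 100 µM and 124 at 1000 µM. JAZ12 followed at 113, 110 and 117, JAZ6 at 95.8, 98.8 and 86.6, and JAZ1 at 73.6, 66.9 and 74.6. JAZ2 stood at 39.2, 40.8 and 33.7 and JAZ3 at 29.0, 23.8 and 19.5. The order of these 6 was the same at each dose, and within a group no library of one reached that of the next. JAZ7, JAZ10 and JAZ5 formed a low tier. JAZ7 was at 6.9, 5.99 and 5.29 CPM per kilobase, JAZ10 at 6.52, 7.2 and 4.54, and JAZ5 at 4.19, 3.98 and 3.82. In the controls the libraries of JAZ7 and JAZ10 overlapped, and at both melatonin doses each gene of this tier overlapped the next, so their order is not resolved. JAZ8 was last.

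**Figure D2:**
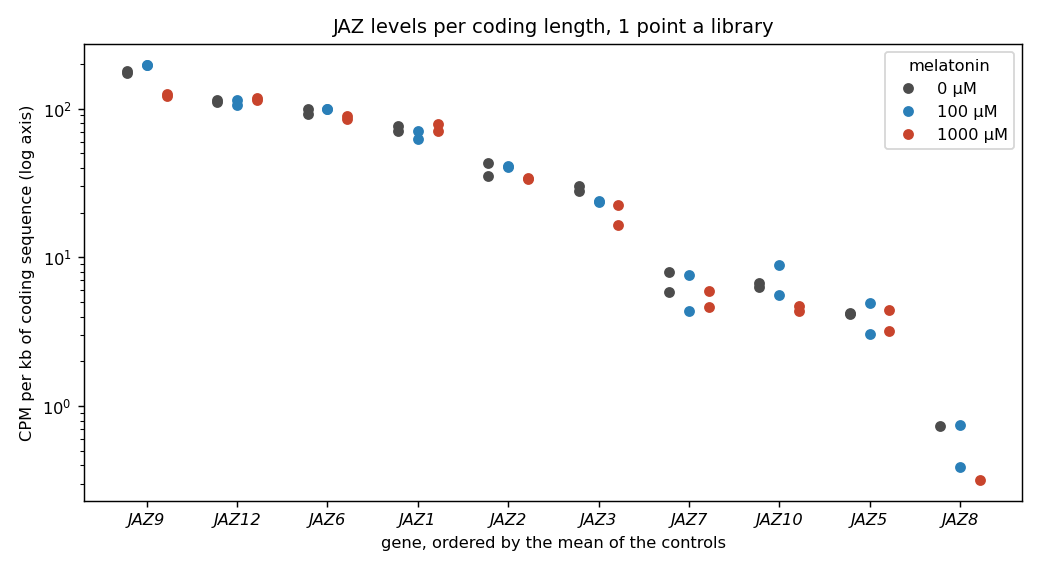
Level of the 10 JAZ genes in CPM per kilobase of coding sequence, on a log axis, with 1 point a library and colours for 0, 100 and 1000 µM melatonin. JAZ9 leads in every group, at a mean of 177 in the controls and 124 at 1000 µM, and JAZ8 libraries with 0 counts are left out because a log axis has no 0.

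JAZ9 took 32.4% and 32.5% of the family's summed level per kilobase in the controls, 35.6% and 35.3% with 100 µM, and 26.3% and 26.6% with 1000 µM. As reads, the 10 genes together had 408.9 and 421.9 CPM in the controls, 419.5 and 426.0 with 100 µM, and 359.3 and 341.4 with 1000 µM. The mean of the sum was therefore 65.0 CPM lower at 1000 µM than in the controls. JAZ9 made up 67.5% of that difference, JAZ3 15.4% and JAZ6 11.6%. Without JAZ9 the sum was 264.3 and 272.8 CPM in the controls, 257.0 and 262.5 with 100 µM, and 254.8 and 240.1 with 1000 µM.

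JAZ9 was the member with the clearest difference between doses. It had 145 and 149 CPM in the controls, 163 and 163 with 100 µM, and 105 and 101 with 1000 µM. Both libraries at 1000 µM lay below all 4 others, and both at 100 µM lay above the controls. Against the controls its log2 change at 1000 µM was -0.51 ± 0.09 (SE; 95% interval -0.70 to -0.32), a fold of 0.701, with an adjusted p of 0.000338 by edgeR's quasi-likelihood test. Against 100 µM the log2 change was -0.66 ± 0.09 (adjusted p = 5.7e-05), a fold of 0.632. At 100 µM against the control it was 0.15 ± 0.09 and did not pass (adjusted p = 0.468). JAZ9 fell at 1000 µM under all 12 alternative settings.

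JAZ3, whose dominant mutant allele jai3-1 makes plants insensitive to jasmonate, had 29.5 and 31.8 CPM in the controls, 25.1 and 25.3 with 100 µM, and 23.8 and 17.6 with 1000 µM. Both libraries at 100 µM lay below the controls and both at 1000 µM lay lower still, with a wide gap between the latter. It fell at 1000 µM against the control, by 0.57 ± 0.15 on the log2 scale (95% interval -0.88 to -0.27; edgeR adjusted p = 0.00654), a fold of 0.672. The call did not hold throughout. DESeq2 gave a log2 change of -0.56 and an adjusted p of 0.059. Without control replicate 2 the log2 change was -0.52 (adjusted p = 0.065), and without replicate 2 of 1000 µM it was -0.36 (adjusted p = 0.0589). The log2 change was -0.29 ± 0.15 at 100 µM against the control (adjusted p = 0.367), and -0.29 between the melatonin doses (adjusted p = 0.223), where 1 library decided the value: it was -0.515 without replicate 1 of 1000 µM (adjusted p = 0.0241) and -0.07 without replicate 2 (adjusted p = 0.787).

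JAZ4 (AT1G48500), the relative of JAZ3 and JAZ9 that is no member of the list of 10, had 6.26 and 6.15 CPM in the controls, 7.46 and 6.06 with 100 µM, and 5.95 and 4.42 with 1000 µM. Its log2 change at 1000 µM was -0.26 ± 0.26, which did not pass (adjusted p = 0.482). Its lower level gives an error larger than that of JAZ3 or JAZ9.

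**Figure D3:**
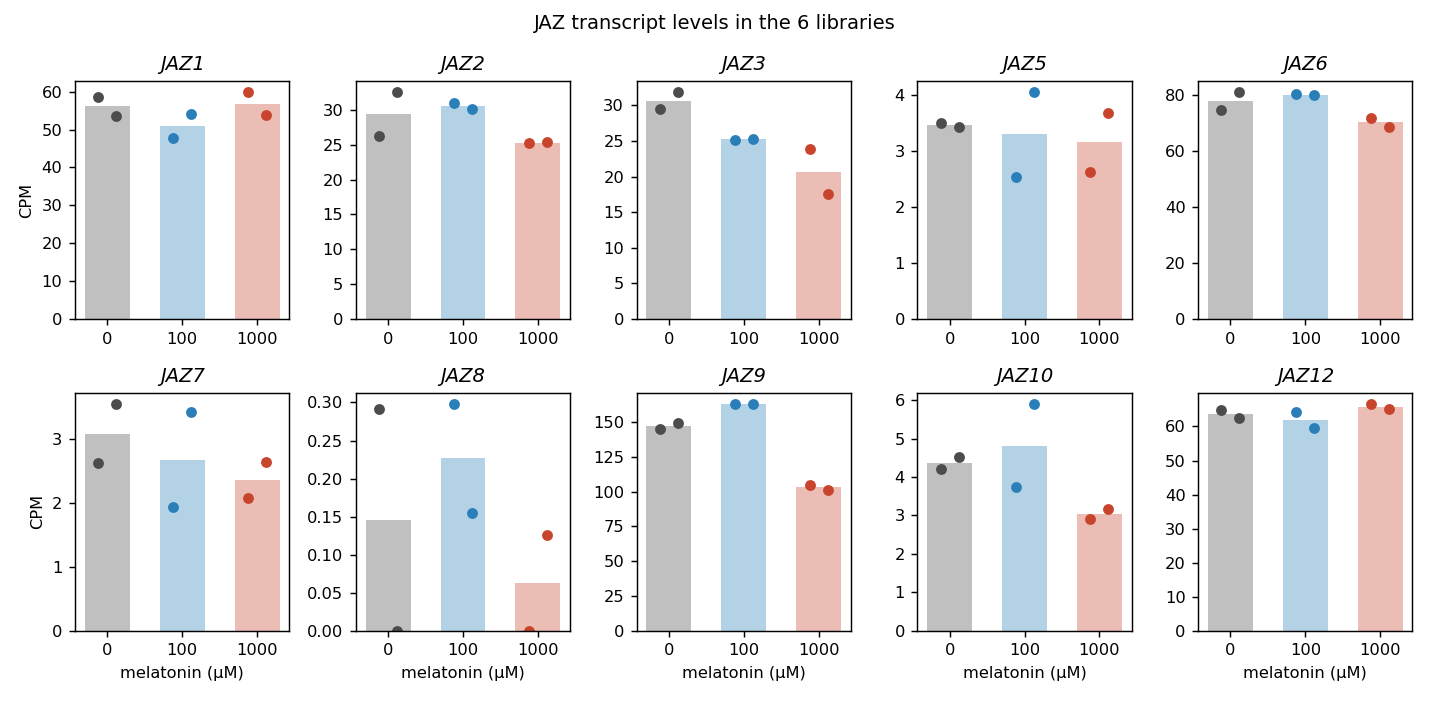
Level of each JAZ gene in CPM at 0, 100 and 1000 µM melatonin, with points for the 2 libraries of a group and bars for their mean, each panel on its own scale from 0. JAZ9 falls from 145 and 149 CPM in the controls to 105 and 101 at 1000 µM, while JAZ12 stays between 59.7 and 66.6 CPM in all 6 libraries.

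Among the other members, JAZ1, a well-studied target of COI1, had 58.5 and 53.7 CPM in the controls, 47.9 and 54.1 with 100 µM, and 59.8 and 53.9 with 1000 µM, and the groups overlapped. Its log2 change at 1000 µM was 0.02 ± 0.11, and the 95% interval of -0.21 to 0.25 does not reach the falls estimated for JAZ3 and JAZ9. With libraries scaled by their totals alone the value was -0.015.

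JAZ2, its closest relative, had 26.3 and 32.5 CPM in the controls, 31.0 and 30.1 with 100 µM, and 25.2 and 25.4 with 1000 µM. Both libraries at 1000 µM lay below the other 4, but the log2 change of -0.22 ± 0.13 did not pass (adjusted p = 0.228). JAZ6 had 74.5 and 80.8 CPM, then 80.2 and 79.8, then 71.7 and 68.5, in the same order of doses. It too was lower in both libraries at 1000 µM, with a log2 change of -0.15 ± 0.10 (adjusted p = 0.28). JAZ5, the partner of JAZ6 by sequence, had 3.49 and 3.42 CPM, then 2.54 and 4.04, then 2.63 and 3.67. With between 17 and 29 counts a library, its log2 change at 1000 µM was -0.13 with a 95% interval of -0.85 to 0.60.

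JAZ10, whose transcript is spliced into forms that resist degradation, had 4.22 and 4.51 CPM in the controls, 3.73 and 5.9 with 100 µM, and 2.91 and 3.16 with 1000 µM. At 1000 µM both libraries were below all others. The log2 change against the control was -0.52 ± 0.32, of the size of those of JAZ3 and JAZ9, but at 21 to 38 counts a library it did not pass (95% interval -1.20 to 0.16; adjusted p = 0.243). A table of counts per gene does not separate the splice forms.

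JAZ12 was the steadiest member, with 64.8 and 62.5 CPM in the controls, 64.3 and 59.7 with 100 µM, and 66.6 and 65.1 with 1000 µM. Its coefficient of variation over the 6 libraries was 3.82%, against 20.2% for JAZ9 and 26.6% for JAZ10. The log2 change at 1000 µM was 0.05 ± 0.10 (95% interval -0.16 to 0.26). JAZ12 overlaps AT5G20910 on the opposite strand. The strand setting of the counting is not given in the sources used here, so JAZ12 counts may hold reads of AT5G20910.

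JAZ7 had 2.62 and 3.55 CPM in the controls, 1.94 and 3.42 with 100 µM, and 2.08 and 2.65 with 1000 µM. Its log2 change at 1000 µM was -0.38 ± 0.39, with overlapping libraries and a 95% interval of -1.19 to 0.43. JAZ8, which lacks the usual degron and so resists degradation, had 2 and 0 counts in the controls, 2 and 1 with 100 µM, and 0 and 1 with 1000 µM. Every library was under 3 counts, the number that a count of 0 still allows, which is 0.379 to 0.466 CPM here, so no fold is given and a difference was not detectable at this depth. Counting error alone is covered by that limit.

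Taken by comparison, 9 of the 10 members had enough counts to be tested. At 100 µM against the control, 0 of 9 passed in edgeR, 0 had an unadjusted p under 0.05 (15.3% of all tested genes had one), and DESeq2 also called 0. The background was 3.32% of all tested genes called, 1.79% up and 1.53% down, and the members' median log2 change was -0.04 against -0.01 for all genes. At 1000 µM against the control, 2 of 9 fell (JAZ3 and JAZ9) and 0 rose, while 29.6% of all tested genes were called, 15.2% up and 14.5% down. The same 2 members had an unadjusted p under 0.05, as did 40.2% of all tested genes, and DESeq2 called 1 down and 0 up. With 9 genes the share of 22.2% down rests on 2 of them and is not set apart from the background. The median log2 change of the members was -0.22, against -0.01 for all genes. Estimates below 0 were 7 of 9 in the members and 9408 of 18380 over all tested genes.

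The libraries were also compared one by one. At 1000 µM, 5 of 9 members (JAZ2, JAZ3, JAZ6, JAZ9 and JAZ10) had both libraries below both controls, and 1 (JAZ12) had both above. Of all tested genes 33.1% were lower and 31.5% higher by this measure. Between the doses, 1000 µM against 100 µM, 1 of 9 members fell (JAZ9) and 0 rose, beside 16% of all genes called, 8.65% up and 7.3% down. JAZ9 was the 1 member of 9 with an unadjusted p under 0.05 there, beside 28.4% of all genes, and DESeq2 also called 1 down and 0 up. JAZ10 had the next largest log2 change there, -0.66 ± 0.32, which did not pass (adjusted p = 0.19). The comparisons share libraries and are not independent of each other.

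**Figure D4:**
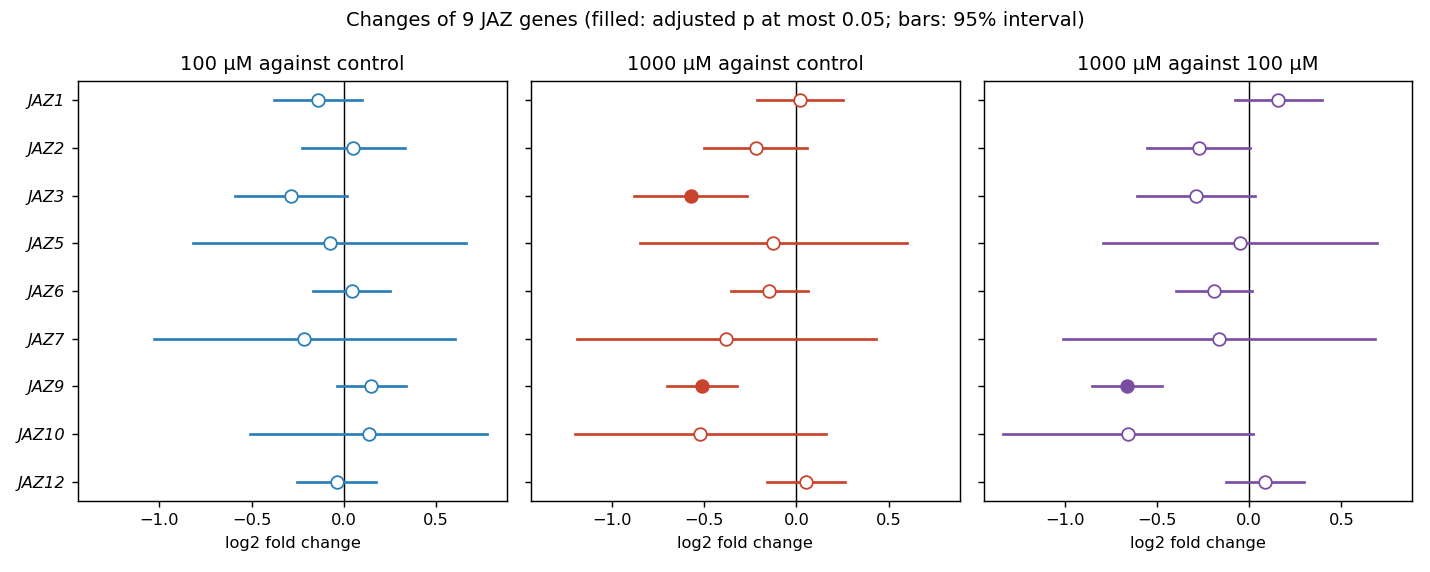
Log2 fold change of the 9 tested JAZ genes in the 3 comparisons, with bars for the 95% interval and filled points for an adjusted p of at most 0.05 (edgeR). JAZ9 is filled in both comparisons with 1000 µM, JAZ3 in that with the control, and the intervals of JAZ5, JAZ7 and JAZ10 are wide.

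For each member, the tested gene with the most similar pattern was found by the root mean square difference of log2 CPM over the 6 libraries, each gene centred on its own mean. The gene closest to JAZ9 was PGM2 (AT1G70730), a phosphoglucomutase, at 0.0311, and it lies on the same chromosome with 2 genes of the table between them. JAZ3 was closest to AT1G34010 (0.0233), JAZ10 to MOP10 (AT5G05500, 0.0543), JAZ2 to EMB1144 (AT1G48850, 0.0263) and JAZ6 to PPOX (AT5G49970, 0.0181). JAZ1 was closest to D6PKL2 (0.0238), JAZ5 to AT4G20720 (0.0579), JAZ7 to STY1 (0.0893) and JAZ12 to UBP13 (0.017). No member had another member as its closest gene. JAZ2 and JAZ6 were nearest to each other within the family, at 0.0686. JAZ9 came nearest to JAZ2 at 0.185 and JAZ3 nearest to JAZ6 at 0.214. The measure is not scaled by a gene's own spread, which was larger in JAZ9 and JAZ3. The SD of log2 CPM over the 6 libraries was 0.284 in JAZ9 and 0.27 in JAZ3, against 0.146 in JAZ2 and 0.0901 in JAZ6. With 6 libraries and many genes, close matches are frequent: 1403 tested genes were closer to JAZ9 than JAZ2 was.

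The rest of the pathway was read from lists by role, 69 genes beside the 10 members, of which 56 were tested. At 100 µM against the control 2 rose and 0 fell in edgeR, 3.57% of those tested beside 3.32% of all genes. An unadjusted p under 0.05 was found for 14 of the 56 (25%), beside 15.3% of all genes, while DESeq2 called 1 up and 0 down. At 1000 µM against the control 13 rose and 13 fell, 46.4% of those tested beside 29.6% of all genes. Between the doses 8 rose and 12 fell, 35.7% of those tested beside 16% of all genes. LOX2 (log2 change -0.39, adjusted p = 0.107) and ORA59 (0.72, adjusted p = 0.0763) did not pass at 100 µM but were called there under 4 and 5 of the 12 alternatives. AOC2, KAT2, ILL6 and AT2G38240 also did not pass at 100 µM but were called there under some of the alternatives. The median log2 change of the 56 was 0.01 at 100 µM and 0.03 at 1000 µM.

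Of the 2 remaining JAZ genes with enough counts, JAZ4 is given above and JAZ11 (AT3G43440) had 7.13 and 6.56 CPM in the controls and 9.55 and 8.22 at 1000 µM, a log2 change of 0.37 that did not pass (adjusted p = 0.253). AT3G22275, annotated as a jasmonate ZIM-domain protein, had 0 counts in all 6 libraries. Of 6 TIFY-domain genes that are not JAZ, 1 fell at 1000 µM, 16.7% called beside 29.6% of all tested genes. It was TIFY8 (AT4G32570), a repressor that also binds NINJA. TIFY8 went from 28.7 and 31.0 CPM to 14.5 and 22.1 (log2 change -0.70, adjusted p = 0.00354). The log2 change was -0.43 without replicate 1 of 1000 µM and -1.03 without replicate 2, and was called in both. TIFY8 overlaps a gene on the opposite strand.

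Of the 7 genes of perception and corepression, 2 rose at 1000 µM, 28.6% called beside 29.6% of all tested genes. COI1 (AT2G39940), the receptor subunit, had 40.7 and 46.2 CPM in the controls, 45.8 and 48.9 with 100 µM, and 60.0 and 54.2 with 1000 µM. Its log2 change was 0.39 ± 0.11 (adjusted p = 0.0135), which was lost with DESeq2 (adjusted p = 0.0691) and without control replicate 1 (adjusted p = 0.176). TPL went from 311 and 326 CPM in the controls to 397 and 361 at 1000 µM (log2 change 0.25, adjusted p = 0.0485). That call was lost under 7 of 12 alternatives, at adjusted p between 0.0657 and 0.312. NINJA stood at 45.7 and 43.3 CPM in the controls and 42.2 and 44.9 at 1000 µM, with overlapping libraries. COI1 and TPL each overlap a gene on the opposite strand, so their counts may hold reads of those genes.

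Of 9 tested transcription factors that JAZ proteins bind, 1 rose and 1 fell at 1000 µM, 22.2% called beside 29.6% of all tested genes. MYC2 (AT1G32640), the central activator, had 68.0 and 67.5 CPM in the controls, 80.2 and 69.3 with 100 µM, and 83.8 and 71.8 with 1000 µM, and its log2 change of 0.20 did not pass (adjusted p = 0.188). Without replicate 2 of 1000 µM it was called up (0.32, adjusted p = 0.0162), and without replicate 1 the log2 change was 0.09. MYC2 also overlaps a gene on the opposite strand. JAM1 (AT2G46510, listed in RefSeq as AIB), which represses targets of MYC2, fell from 33.6 and 38.1 CPM to 20.1 and 21.7 (log2 change -0.78, adjusted p = 0.000257). The factor that rose was EIN3 (AT3G20770), an activator of ethylene responses, with a log2 change of 0.25 (adjusted p = 0.0456), named after its values were seen. That call was lost under 7 of 12 alternatives, at adjusted p between 0.0728 and 0.31.

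Of 13 tested genes of jasmonate synthesis, 6 fell and 2 rose at 1000 µM, 61.5% called beside 29.6% of all tested genes. LOX2, the plastid lipoxygenase that starts the pathway in leaves, had 318 and 416 CPM in the controls, 302 and 258 with 100 µM, and 134 and 111 with 1000 µM. Both libraries at the highest dose lay below all 4 others. Its log2 change was -1.58 ± 0.13 (adjusted p = 5.61e-08). AOC2, an allene oxide cyclase, went from 110 and 128 CPM to 47.4 and 36.4 (log2 change -1.51, adjusted p = 6.3e-08). AOC1 fell less (-0.59, adjusted p = 0.0015), as did OPR3, the reductase of the peroxisomal step (-0.62, adjusted p = 0.00327). Both calls were lost without control replicate 2, at adjusted p = 0.0546 and 0.0558. AOC1 and AOC2 are similar genes side by side, and reads may be split between them. AOS, which makes the allene oxide, had 213 and 240 CPM in the controls and 212 and 137 at 1000 µM and did not pass (-0.38, adjusted p = 0.0516). It was called down with no filter (adjusted p = 0.000923), with library totals (adjusted p = 0.0174) and without replicate 1 of 1000 µM (-0.72, adjusted p = 7.04e-08), while without replicate 2 the log2 change was -0.09. The 2 libraries at 1000 µM thus disagreed on AOS.

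The 2 synthesis genes that rose, ACX1 (log2 change 0.60, adjusted p = 0.000159) and KAT2 (AT2G33150, listed in RefSeq as PKT3; 0.83, adjusted p = 4.78e-06), encode enzymes of peroxisomal beta-oxidation, which also breaks down fatty acids. The genes of the list therefore moved in both directions.

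A list of jasmonate turnover enzymes and related oxygenases had 9 tested genes, of which 5 rose and 3 fell at 1000 µM. The share called was 88.9%, beside 29.6% of all tested genes. AT2G38240, annotated as a 2-oxoglutarate and iron-dependent oxygenase, had 5.68 and 4.37 CPM in the controls, 7.31 and 9.63 with 100 µM, and 42.8 and 33.0 with 1000 µM. Its log2 change of 2.91 ± 0.20 had the smallest adjusted p of the 56 genes, 6.71e-09. JRG21 (AT3G55970, jasmonate-regulated gene 21) had 9.9 and 10.1 CPM in the controls, 21.5 and 16.3 with 100 µM, and 33.4 and 25.2 with 1000 µM. Its log2 change was 0.92 at 100 µM (adjusted p = 0.0132) and 1.54 at 1000 µM (adjusted p = 4.84e-06). At 100 µM the call was lost without either control library or without replicate 1 of 100 µM, at adjusted p between 0.0867 and 0.276.

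ST2A, a sulfotransferase of 12-hydroxyjasmonate, rose from 15.3 and 13.8 CPM in the controls to 40.3 and 33.9 at 1000 µM (log2 change 1.35, adjusted p = 2.03e-06). IAR3, an amidohydrolase of hormone conjugates, rose by a log2 change of 0.89 (adjusted p = 6.4e-06), and AT5G05600, another oxygenase of the same superfamily, by 0.57 (adjusted p = 0.000144). CYP94B1 (-0.75, adjusted p = 0.00116) and CYP94C1 (-0.78, adjusted p = 0.000271), cytochromes P450 that oxidise jasmonoyl-isoleucine, fell, as did the amidohydrolase ILL6 (-0.75, adjusted p = 0.000646). CYP94B3 had 7.28 and 6.97 CPM in the controls and 7.89 and 7.71 at 1000 µM and did not pass (adjusted p = 0.698).

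Of 10 tested genes known as jasmonate-induced, 3 rose and 2 fell at 1000 µM, 50% called beside 29.6% of all tested genes. ORA59, a factor of the branch shared by jasmonate and ethylene, had 17.6 and 27.5 CPM in the controls, 37.9 and 36.5 with 100 µM, and 71.2 and 43.6 with 1000 µM (log2 change 1.34 ± 0.20 at 1000 µM, adjusted p = 6.74e-05). The defensin PDF1.2, a marker of that branch, had 1 and 1 counts in the controls, 14 and 9 with 100 µM, and 19 and 15 with 1000 µM. Its ratio to the control, from summed counts, was 12.4 at 100 µM (exact 95% interval 3.07 to 109) and 15.9 at 1000 µM (4.09 to 137), with adjusted p of 0.0166 and 0.000575. The call at 100 µM was lost without any 1 of the 4 libraries compared, at adjusted p between 0.108 and 0.239, and near-identical defensin genes make its counts uncertain.

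VSP1, a vegetative storage protein of the branch that MYC2 drives, had 9.46 and 11.6 CPM in the controls, 8.65 and 9.94 with 100 µM, and 2.77 and 3.41 with 1000 µM (log2 change -1.76 ± 0.25, adjusted p = 4.16e-05). Its close copy VSP2 had 5.68 and 6.83 CPM in the controls and 3.32 and 4.3 at 1000 µM and did not pass (-0.71, adjusted p = 0.0983), though it was called with no filter (adjusted p = 0.0442). Between the doses VSP2 was called down (-0.93, adjusted p = 0.0482), a call lost under 7 of 12 alternatives. TAT3, a tyrosine aminotransferase, had 21 and 14 counts in the controls, 8 and 7 with 100 µM, and 0 and 2 with 1000 µM, a ratio of 0.0536 to the control (exact 95% interval 0.00624 to 0.209; adjusted p = 0.000586). The remaining gene that rose, NAC055 (0.45, adjusted p = 0.0168), is a NAC factor named after its values were seen. Its call was lost with DESeq2 (adjusted p = 0.0684), without control replicate 1 (adjusted p = 0.184) and without replicate 1 of 1000 µM (0.27, adjusted p = 0.131). Touch and wounding can also raise jasmonate targets. Genes that respond to them had summed levels of 1390 and 1280 CPM in the controls. The sums were 1150 and 1200 with 100 µM, and 1550 and 1460 with 1000 µM. Of the control sums, TCH3 held 564 and 550 CPM and TCH4 held 600 and 519. At 1000 µM 5 of 9 tested genes were up and 1, TCH3, was down, 66.7% called beside 29.6% of all tested genes. The part of touch and wounding was not tested.

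**Figure D5:**
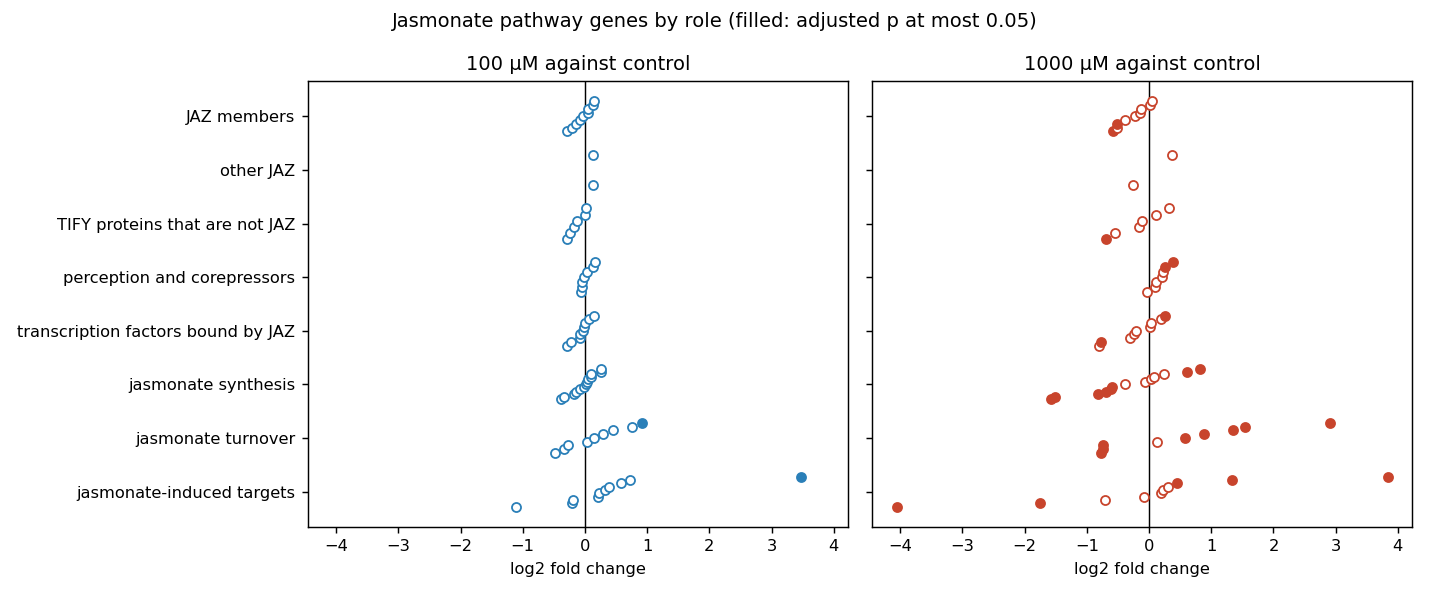
Log2 fold change against the control at 100 µM (left) and 1000 µM (right) for the tested genes of each role list, 1 point a gene, filled where the adjusted p was at most 0.05 (edgeR). At 1000 µM 13 of 56 pathway genes beyond the JAZ members are filled on each side of 0, while the JAZ members stay between -0.57 and 0.05, and the farthest points, PDF1.2 and TAT3, are fitted from few counts.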

How the data were processed

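The series holds RNA-seq of 6 libraries, 3 groups of 2 set by the treatment labels. The authors deposited whole-number read counts per gene, in the build TAIR10. The tools named per the submitters' processing notes are TopHat2 2.0.12, Bowtie2 2.2.3, DESeq 1.18.0 and HTSeq 0.6.1. Options, strand included, are not stated there.

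The counts were tested with edgeR 4.0.16 in R 4.3.3: filterByExpr kept 18380 genes, TMM scaled the libraries, and glmQLFit and glmQLFTest (two-sided) were run on all 6 libraries with the group as the only term. P-values were adjusted by Benjamini-Hochberg over all tested genes, with a threshold of 0.05. The biological coefficient of variation was 7.78%, with 3 residual degrees of freedom. The fit added a mean of 14.13 prior degrees of freedom, borrowed from the spread of all tested genes. Standard errors are the absolute log2 change over the square root of F, and intervals use the same fit. CPM were computed with TMM factors. Levels per kilobase divide by the longest coding sequence in RefSeq. Ratios from few counts have exact 95% intervals, which cover counting error only. The procedure was tested on simulated counts that gave all genes and groups the same spread. That run does not cover the wider difference between the libraries at 1000 µM.

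Alternatives were DESeq2 1.42.0, its size factors in edgeR, no filter, the 2 compared groups alone, a replicate block, each library left out and, chosen after seeing the data, library totals without TMM. Promoter windows and names come from RefSeq's TAIR10.1 annotation, whose gene starts may differ from the TAIR10 models. Protein sequences were not used here. The JAZ members and all gene lists were chosen with earlier results of these data known. Genes were named by rule: all members, up to 20 other pathway genes past the threshold by smallest adjusted p, 13 genes always named, and the closest gene and member by pattern. EIN3 and NAC055 were named outside the rule, after their values were seen.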

Additional observations from a re-analysis of the deposited data

How the results depend on the processing

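With 2 libraries a group, JAZ5, JAZ7 and JAZ10 had 13 to 38 counts a library, and moderate changes of these members could not be resolved. JAZ8 could not be tested. JAZ9 kept its direction and its calls at 1000 µM under all 12 alternatives. The members called down at 1000 µM against the control numbered 2 in the main fit, 1 with DESeq2 and 1 to 2 with a library left out, and between the doses 1 to 2. Replicate numbers did not pair the libraries (correlations of 0.0277, -0.0311 and -0.0662 between same-numbered deviations). With the replicate block the calls over all genes were 446, 4959 and 2508 instead of 610, 5442 and 2932 (100 µM and 1000 µM against the control, then between the doses), and members called were 0, 2 and 1, as without it. DESeq2 called 334, 3188 and 1567 genes. At 100 µM, no filter gave 1091 and the 2 groups alone 1697. Leaving out a library gave 101 to 1757, 3318 to 6684 and 1158 to 4442. Other pathway genes called up at 100 µM numbered 5 without the filter, 1 with DESeq2, 4 with the 2 groups alone and 0 to 6 with a library left out, and those called down 2, 0, 4 and 0 to 4. Between the doses, DESeq2 called 6 down, and leaving out a library gave 6 to 11 down and 5 to 13 up. Signs turned for values near 0 and for some larger ones with wide errors. Among the latter, at 100 µM against the control, were JAZ7 (-0.21 ± 0.39) and VSP2 (0.22 ± 0.29). With library totals JAZ1 was -0.015 at 1000 µM and NINJA -0.017 between the doses. With no filter EIN3 was -0.002 at 100 µM. With a library left out, log2 changes at 100 µM ran from -0.089 to 0.215 for JAZ2, -0.443 to 0.223 for JAZ5, -0.013 to 0.103 for JAZ6, -0.67 to 0.14 for JAZ7, -0.227 to 0.431 for JAZ10 and -0.095 to 0.016 for JAZ12. They ran from -0.019 to 0.035 for ACX1, -0.034 to 0.238 for AOC1, -0.008 to 0.083 for CYP94B1, -0.036 to 0.266 for JAZ4, -0.196 to 0.395 for JAZ11, -0.131 to 0.033 for NINJA, -0.007 to 0.062 for TPL, -0.162 to 0.007 for AOS -0.262 to 0.593 for VSP2 and -0.064 to 0.062 for EIN3. At 1000 µM against the control they ran from -0.053 to 0.103 for JAZ1, -0.38 to 0.091 for JAZ5 and -0.067 to 0.018 for NINJA. Between the doses they ran from -0.342 to 0.319 for JAZ5, -0.513 to 0.292 for JAZ7, -0.014 to 0.572 for JAZ11, -0.061 to 0.107 for NINJA and -0.055 to 0.175 for MYC2. The cause of these moves was not tested.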
